A study of Mus musculus with 102 samples.

Results

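Transcripts of 10 glycolytic enzymes were followed in sorted microglia of the mouse lumbar spinal cord: Hk2, Gpi1, Pfkp, Aldoa, Tpi1, Gapdh, Pgk1, Eno1, Pkm and Ldha. They were chosen with earlier results of these data known, taken by symbol from the normalized count table and matched to the raw counts by gene ID. The 10 symbols stand on 11 rows of the table, because Aldoa has 2 IDs. The row with 661462 counts in all (ENSMUSG00000030695) was used for Aldoa and the other, with 371, was left out. All 10 passed the filter on low counts, among 20461 genes tested of 53715 in the table.

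The study asked what loss of cholesterol export and the protein AIBP, which binds apolipoprotein A-I, do to spinal microglia in a mouse model of chemotherapy-induced neuropathy. WT mice and ABC-imKO mice (KO; Abca1fl/fl Abcg1fl/fl Cx3cr1-CreERT2) each gave 3 groups. Naive mice had neither cisplatin nor an intrathecal injection. The others had cisplatin on days 1 and 3 and, on day 7, saline or AIBP injected intrathecally. Every group held 3 biological samples (naive 1 to 3, cisplatin saline 4 to 6, cisplatin AIBP 7 to 9), except WT cisplatin AIBP, which held 2 (7 and 9). The naive groups had no injection, so a comparison of cisplatin saline with naive also holds the injection. In KO the Cre recombinase is driven by the promoter of Cx3cr1, a microglial gene also expressed by monocytes, and all 3 KO groups carry it. The labels used here give no Cre control without floxed alleles, no age, and no word on whether a sample comes from 1 mouse or several. All p-values therefore speak only of the spread among these samples.

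Glycolysis splits glucose into pyruvate in the cytosol. Hexokinase, glucose-6-phosphate isomerase, phosphofructokinase, aldolase and triosephosphate isomerase make up its preparatory stage, which spends ATP. Glyceraldehyde-3-phosphate dehydrogenase, phosphoglycerate kinase, phosphoglycerate mutase, enolase and pyruvate kinase make up the stage that yields ATP and NADH, and lactate dehydrogenase turns pyruvate into lactate and restores NAD. Microglia and other macrophages are known to raise glycolysis on inflammatory activation. The transcription factors HIF-1 and Myc are textbook regulators of many of these genes, HIF-1 through an ACGTG or GCGTG core and Myc through the E-box CACGTG.

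The 250 bases before the RefSeq start (GRCm38.p6) are shown for 4 of the enzymes: Ldha, Gapdh, Pgk1 and Hk2. After cisplatin and saline, in the results that follow, Ldha and Gapdh were called higher in both genotypes. Pgk1 was called higher in WT only, and Hk2 in neither. Windows with no base of an annotated exon (GENCODE M21) were chosen, and each is written 5′ to 3′ on the gene's strand. Every window of Pkm, Gpi1 and Tpi1, which were also called higher in 1 genotype or both, held exon bases and is not shown. Capitals mark the core ACGTG or GCGTG on either strand, whose reverse complements read CACGT and CACGC.
Ldha, chr7:46845554-46845803, plus strand: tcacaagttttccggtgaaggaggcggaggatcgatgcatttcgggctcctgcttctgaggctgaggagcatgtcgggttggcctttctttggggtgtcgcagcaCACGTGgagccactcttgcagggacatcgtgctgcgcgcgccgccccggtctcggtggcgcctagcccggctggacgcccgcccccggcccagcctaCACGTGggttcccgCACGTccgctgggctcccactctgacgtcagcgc
Gapdh, chr6:125165774-125166023, minus strand: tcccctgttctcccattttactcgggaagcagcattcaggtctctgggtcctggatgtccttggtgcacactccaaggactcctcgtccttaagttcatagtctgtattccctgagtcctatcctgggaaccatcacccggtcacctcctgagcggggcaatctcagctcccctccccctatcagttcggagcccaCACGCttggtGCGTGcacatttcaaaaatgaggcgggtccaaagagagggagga
Pgk1, chrX:106186850-106187099, plus strand: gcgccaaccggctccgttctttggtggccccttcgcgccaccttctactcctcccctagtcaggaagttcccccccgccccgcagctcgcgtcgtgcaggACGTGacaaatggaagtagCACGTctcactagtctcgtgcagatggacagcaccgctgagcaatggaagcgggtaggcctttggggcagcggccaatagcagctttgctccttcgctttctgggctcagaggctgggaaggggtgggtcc
Hk2, chr6:82774455-82774704, minus strand: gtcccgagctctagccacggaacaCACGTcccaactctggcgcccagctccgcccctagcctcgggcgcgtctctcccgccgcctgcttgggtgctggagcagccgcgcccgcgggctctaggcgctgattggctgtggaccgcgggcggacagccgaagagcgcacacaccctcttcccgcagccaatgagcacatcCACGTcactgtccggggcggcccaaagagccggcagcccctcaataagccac
The Ldha window holds 3 sites, 145, 48 and 34 bases before the start, counting overlapping matches as 1. The first and second of them are the E-box CACGTG, which contains ACGTG. Gapdh has 2 sites (54 and 44 bases before the start), Pgk1 has 2 (150 and 131) and Hk2 also has 2 (226 and 52). RefSeq promoters matched all 10 symbols at 16 starts, and 12 of these starts hold the core. Some of these windows overlap: starts 2 and 3 of Eno1 hold the same sites, as do starts 2 and 3 of Aldoa. By symbol, 8 of 10 enzymes hold the core at any start and Gpi1 and Tpi1 do not. The core stands in 38.6% of all 32851 promoter windows of this length and in 41.5% of symbols, and the E-box in 6.02% of windows. Among the 16 starts of the enzymes, 1 holds the E-box, the Ldha start shown. A match is a description of these letters only, and its part in the transcript levels was not tested.

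Biological samples held 45.1 to 76.6 M counts (M for mega). Levels are given as CPM, counts scaled to a common library size with TMM factors, and changes as log2 fold changes ± SE from edgeR's quasi-likelihood fit over all 17 samples, with p adjusted over all 20461 genes and a threshold of 0.05. Defining markers of microglia were all detected in every group: the 10 genes of that list summed to 48571 to 56232 CPM in naive WT samples and 37431 to 48783 in KO naive. Cx3cr1, whose promoter drives Cre, was at 3397, 4291 and 4871 CPM (naive), 1718, 2218 and 2771 (saline) and 5550.5, 5249.6 and 7078 (labelled AIBP) in the KO groups, and at 7297 and 7902 CPM in the WT AIBP samples. Apoe, a lipid carrier gene, was at 4693, 3421 and 3799 CPM (naive), 21278, 8744 and 8111 (saline) and 1541, 1007 and 1389 (labelled AIBP), in the 3 KO groups, against 862 to 1898 CPM over the 8 WT samples. On Apoe these 3 samples lay within the WT range. On Cx3cr1 they lay above all other KO samples and below both WT AIBP samples. WT cisplatin saline samples had 5609, 5531 and 7103 CPM of Cx3cr1 and naive WT samples 9989, 10656 and 9349. KO 7 and KO 9 thus lay within the range of WT cisplatin saline, and KO 8 below it. These 3 samples are therefore called by their label, and every direction drawn from them rests on it. Abca1 and Abcg1 counts are sums over whole genes, deleted exons or not, and do not check the deletion; naive WT samples had 87.3, 114 and 106 CPM of Abca1 and naive KO samples 105, 78.6 and 66.1, and for Abcg1 these were 160.2, 91.7 and 107 and 41.6, 66.4 and 56.

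After cisplatin and saline, transcripts of Gapdh, Pkm and Ldha were about 2.5 to 3.3 times those of naive microglia in both genotypes. In WT, 5 of 10 rose and none fell: Pkm, Gapdh, Ldha, Pgk1 and Tpi1. In KO, 4 of 10 rose and none fell: Ldha, Gapdh, Pkm and Gpi1. Over all genes tested, 2.91% were called in WT (595 genes, 1.95% higher) and 4.41% in KO (903 genes, 2.42% higher). The median log2 fold change of the 10 enzymes was 1.00 in WT and 0.93 in KO, beside -0.01 and -0.04 over all genes. Together they took 0.221% ± 0.015 of all counts in naive WT samples and 0.515% ± 0.13 in WT cisplatin saline (SD, n = 3 each). In KO the share was 0.222% ± 0.014 in naive and 0.503% ± 0.040 in cisplatin saline (SD, n = 3 each). Fewer cells of a type and less RNA per cell cannot be told apart in these bulk samples.

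**Figure D1:**
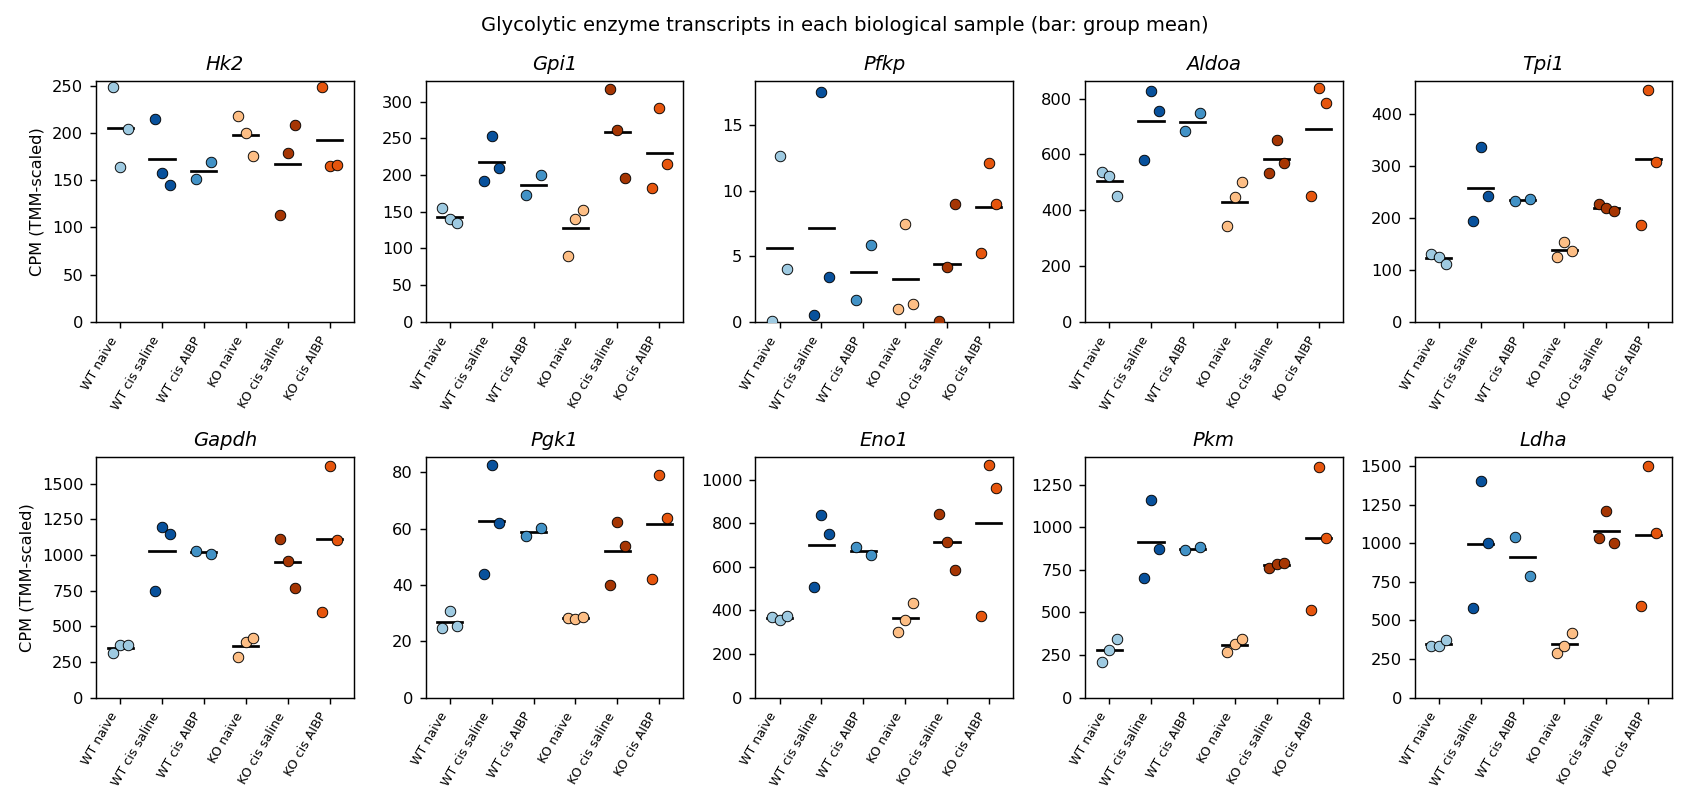
CPM (TMM-scaled) of each enzyme in each of the 17 biological samples, by group on the horizontal axis; each point is a sample and each bar a group mean. For all but Hk2 and Pfkp, every cisplatin saline sample lies above every naive sample of its genotype.

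These rises did not all survive the loss of a sample. In WT, leaving out naive 1, 2 or 3 left 1, 2 and 2 enzymes called, leaving out cisplatin saline 5 or 6 left 1 and 2, and leaving out cisplatin saline 4 left 5; in KO, leaving out naive 1 or 2 or cisplatin saline 5 left 1 each, and the other omissions left 3 or 4. Pkm in WT and Ldha in KO passed in all 6 such fits. Calls over all genes moved between fits too, in KO from 35 to 2589 over all alternative fits, other tools and scalings among them. That range does not show whether enzyme calls moved in step with those of all genes. The counts of enzymes are not read as particular to the enzymes.

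In the preparatory stage, Gpi1 rose in KO and Tpi1 in WT. Hk2 (chr6:82725025-82774454), the inducible hexokinase that traps glucose as glucose-6-phosphate, stood at 248, 164 and 204 CPM in naive WT, 214, 158 and 144 with saline and 151 and 169 with AIBP. Its KO levels were 218, 199.6 and 176 CPM (naive), 113, 178 and 209 (saline) and 248, 165 and 165 (labelled AIBP). The groups overlap throughout, and neither cisplatin comparison passed: log2 fold change -0.25 ± 0.24 in WT (95% CI -0.77 to 0.27, adjusted p = 0.626) and -0.25 ± 0.24 in KO (95% CI -0.77 to 0.27, adjusted p = 0.648). Hk2 was the only enzyme of the 10 whose log2 fold change was below 0 in both. The 214 CPM of WT cisplatin saline 4 came from technical replicates at 346, 142 and 145 CPM, of which 346 was the highest of all 51 libraries. Without technical replicate 1, 2 or 3 of every sample, the WT log2 fold change of Hk2 was -0.39, -0.05 and -0.22. The WT overlap of saline with naive therefore leans on 1 library.

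Gpi1 (chr7:34201330-34230336), which turns glucose-6-phosphate into fructose-6-phosphate, stood at 156, 139.8 and 134 CPM in naive WT, 192, 252 and 209 with saline and 173 and 200.3 with AIBP. Its KO levels were 90.2, 139.6 and 152 CPM (naive), 317, 261 and 196 (saline) and 182, 291 and 216 (labelled AIBP). All cisplatin saline samples lay above all naive samples of their genotype. Gpi1 rose 2.03-fold in KO (log2 fold change 1.02 ± 0.23, adjusted p = 0.0208), while the WT value was 0.61 ± 0.23 (adjusted p = 0.195). The difference between genotypes did not pass (interaction 0.41 ± 0.32, 95% CI -0.28 to 1.10, adjusted p = 0.857).

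Pfkp (chr13:6579768-6648777), the platelet-type phosphofructokinase, was hardly detected. It stood at 0.04, 12.7 and 4.06 CPM in naive WT, 0.55, 17.5 and 3.45 with saline and 1.7 and 5.85 with AIBP. Its KO values were 1.01, 7.44 and 1.35 CPM (naive), 0.028, 4.21 and 8.96 (saline) and 5.21, 12.1 and 8.98 (labelled AIBP). Of 51 libraries 7 had no Pfkp count, and the SD of its log2 level between libraries of a sample was 2.35, against 0.11 to 0.27 for the other 9 enzymes. Its log2 fold changes were 0.36 ± 1.56 (adjusted p = 0.945) and 0.43 ± 1.57 (adjusted p = 0.939), so a change was not detectable at this precision.

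Aldoa (chr7:126795234-126800751), the aldolase that cleaves fructose-1,6-bisphosphate, was the most abundant of the 10 per length in naive microglia. It stood at 536, 522 and 453 CPM in naive WT, 579, 826 and 755 with saline and 684 and 749 with AIBP. Levels in KO were 343, 448 and 502 CPM (naive), 534, 653 and 569 (saline) and 451, 838 and 786 (labelled AIBP). Cisplatin saline and naive samples did not overlap in either genotype, but the log2 fold changes of 0.52 ± 0.22 in WT (adjusted p = 0.242) and 0.44 ± 0.22 in KO (adjusted p = 0.299) did not pass.

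Tpi1 (chr6:124810586-124814296), which interconverts the 2 triose phosphates made by aldolase, stood at 132, 125 and 112 CPM in naive WT, 195, 337 and 242 with saline and 232 and 236 with AIBP. Its KO levels were 126, 155 and 137 CPM (naive), 227, 219 and 214 (saline) and 187, 447 and 309 (labelled AIBP). Samples after cisplatin saline were again all above the naive samples, with 5 the highest of the WT samples. Tpi1 rose 2.1-fold in WT (log2 fold change 1.07 ± 0.26, adjusted p = 0.037); in KO the value was 0.66 ± 0.25 (adjusted p = 0.181). Among the 6 fits that leave out 1 of these WT samples, Tpi1 passed in 1, with adjusted p from 0.0187 to 0.194.

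In the energy-yielding stage, Gapdh and Pkm rose in both genotypes and Pgk1 in WT. Gapdh (chr6:125161715-125166467), which oxidises glyceraldehyde-3-phosphate and makes NADH, stood at 312, 366 and 367 CPM in naive WT, 749, 1197 and 1147 with saline and 1031 and 1009.5 with AIBP. KO levels were 284, 388 and 421 CPM (naive), 1116, 959 and 771 (saline) and 602, 1623 and 1104 (labelled AIBP). Every cisplatin saline sample was at least 749 CPM and every naive sample at most 421. Gapdh rose 2.96-fold in WT (log2 fold change 1.57 ± 0.29, adjusted p = 0.0109) and 2.6-fold in KO (1.38 ± 0.29, adjusted p = 0.0144). It passed in 4 of 6 leave-one-out fits in WT (adjusted p up to 0.0614) and 3 of 6 in KO (up to 0.0703). Gapdh is often used as a reference gene for expression measurements, and in these libraries its level moved with treatment.

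Pgk1 (chrX:106187100-106203699), which makes the first ATP of the pathway, stood at 24.8, 30.8 and 25.3 CPM in naive WT, 44.1, 82.7 and 61.9 with saline and 57.3 and 60.2 with AIBP. Levels in KO microglia were 28.2, 28 and 28.6 CPM (naive), 40, 62.4 and 53.9 (saline) and 42, 79 and 63.8 (labelled AIBP). The naive samples lay within 24.8 to 30.8 CPM and all cisplatin saline samples at 40 or more. Pgk1 rose 2.33-fold in WT (log2 fold change 1.22 ± 0.26, adjusted p = 0.0231), and its KO value was 0.88 ± 0.26 (adjusted p = 0.0768). The WT call was kept in 1 of 6 leave-one-out fits, with adjusted p up to 0.129.

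Eno1 (chr4:150236721-150248879), the enolase that forms phosphoenolpyruvate, stood at 368, 356 and 374 CPM in naive WT, 509, 837 and 749.8 with saline and 689 and 655 with AIBP. Its levels in KO were 300.2, 354 and 436 CPM (naive), 843, 711 and 585 (saline) and 373, 1066 and 959 (labelled AIBP). Naive and cisplatin saline samples did not overlap, yet neither fold change passed: 0.93 ± 0.30 in WT (adjusted p = 0.129) and 0.97 ± 0.30 in KO (adjusted p = 0.0928). Pgam1, the mutase between Pgk1 and Eno1 in the pathway, was low: the naive WT samples had 9.4, 16.5 and 10.6 CPM and the saline group 14.9, 28 and 21.1. Its log2 fold change was 0.81 ± 0.31 in WT (adjusted p = 0.195) and 0.10 ± 0.30 in KO (adjusted p = 0.914).

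Pkm (chr9:59656368-59679375), pyruvate kinase, had the largest fold change of the 10 enzymes in WT. It stood at 209, 279 and 343 CPM in naive WT, 704, 1159 and 874 with saline and 865 and 881 with AIBP. Its KO values were 268, 314 and 346 CPM (naive), 761, 782 and 788 (saline) and 516, 1357 and 937 (labelled AIBP). The KO cisplatin saline samples were close to each other and all above the highest KO naive sample. Pkm rose 3.29-fold in WT (log2 fold change 1.72 ± 0.29, adjusted p = 0.0067) and 2.51-fold in KO (1.33 ± 0.28, adjusted p = 0.0155). The WT call passed in all 6 leave-one-out fits and the KO call in 3 of 6 (adjusted p up to 0.0715). Gene counts do not separate the M1 and M2 splice forms of this enzyme.

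Ldha (chr7:46841475-46855627), the lactate dehydrogenase subunit common in glycolytic tissue, had the largest fold change of the 10 in KO microglia. Its level was 333, 331 and 374 CPM in naive WT, 577, 1401 and 999 with saline and 1037 and 787 with AIBP. Its KO levels were 286, 337 and 415 CPM (naive), 1035, 1209.8 and 1001 (saline) and 594, 1499 and 1063 (labelled AIBP). All cisplatin saline samples exceeded all naive samples, and WT 4 was the lowest of them. Ldha rose 2.87-fold in WT (log2 fold change 1.52 ± 0.32, adjusted p = 0.0201) and 3.13-fold in KO (1.64 ± 0.32, adjusted p = 0.00922). In WT it passed in 1 of 6 leave-one-out fits (adjusted p up to 0.111) and in KO in 6 of 6.

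**Figure D2:**
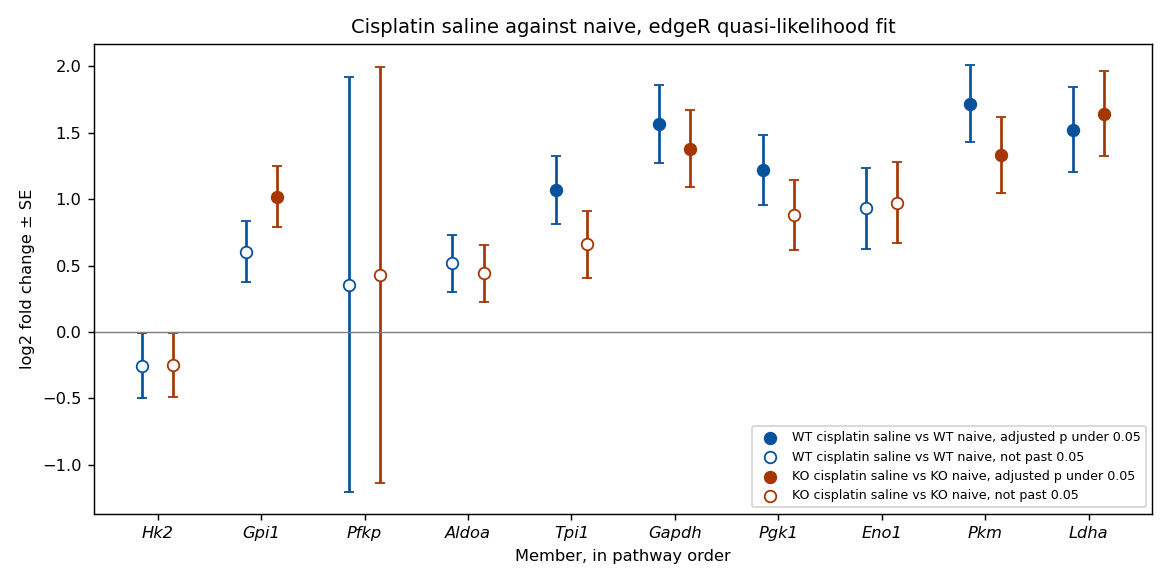
Log2 fold change ± SE of each enzyme, cisplatin saline against naive, in WT (blue) and KO (orange-brown), in pathway order from Hk2 to Ldha; filled points have an adjusted p under 0.05. Values run from -0.25 for Hk2 to 1.72 for Pkm in WT and from -0.25 for Hk2 to 1.64 for Ldha in KO, and the long bars belong to Pfkp.

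By overlap alone, 8 of 10 enzymes had every cisplatin saline sample above every naive sample, in WT and again in KO. The same held for 12% of all genes in WT and 12% in KO. Hk2 and Pfkp were the exceptions in both genotypes.

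Across the 17 samples the 8 enzymes other than Hk2 and Pfkp varied together. Over their 28 pairs, Pearson r of log2 CPM was 0.75 to 0.98 (median 0.90), and of deviations from the group means 0.34 to 0.95 (median 0.82). Hk2 ran the other way, with r of -0.68 to -0.44 against those 8. All points share library depth and scaling, and these values are a description. Within groups, WT 5 was the highest of the WT cisplatin saline samples and KO 8 the highest of the samples labelled KO cisplatin AIBP for all 8 enzymes, while KO 7 was the lowest of its group for all 8. The genes most like the mean of the 10 enzymes, among 6576 others at 20 CPM or more, were Mif, Ran, Atp5d, Npm1, Eif5a, Atp5b, Ruvbl2 and Anp32b, with r of 0.96 to 0.97 over 17 samples.

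Per length, the order of the enzymes shifted after cisplatin. On a TPM-like scale (counts over union exon length, scaled to the same sum in every sample), WT naive microglia had Aldoa at 461 ± 16, Ldha at 281 ± 43, Gapdh at 226 ± 32 and Eno1 at 183 ± 19 (SD, n = 3). Then came Pkm at 150 ± 46, Tpi1 at 119 ± 5.0, Hk2 at 92.4 ± 21, Gpi1 at 59.4 ± 4.4, Pgk1 at 32.1 ± 3.0 and Pfkp at 1.09 ± 1.2. From Ldha to Hk2, neighbours in this order had overlapping ranges or gaps within their spread, except that Tpi1 and Hk2 did not overlap. In WT cisplatin saline, Ldha at 831 ± 349, Gapdh at 690 ± 158 and Aldoa at 685 ± 118 led and overlapped, ahead of Pkm at 506 ± 131 and Eno1 at 360 ± 86. KO had the same leading gene in each state, Aldoa at 402 ± 37 in naive and Ldha at 929 ± 127 in cisplatin saline.

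Isozyme shares were taken on this scale. Ldhb encodes the other lactate dehydrogenase subunit, which is common in oxidative tissue. Ldha made up 12.6, 12.3 and 17.8% of Ldha and Ldhb in naive WT samples and 28.2, 62.3 and 41.6% in WT cisplatin saline. In KO it made up 16.6, 17.3 and 14.8% in naive and 38.6, 48.2 and 48.1% in cisplatin saline. The groups did not overlap in either genotype. An exact two-sided permutation test gave p = 0.100 in each (adjusted p = 0.143 over 10 such tests), and 0.10 is the smallest value 3 samples against 3 allow. The WT levels of Ldhb itself were 1099, 1115 and 819 CPM (naive) and 697, 403 and 664 (saline; log2 fold change -0.78 ± 0.24, adjusted p = 0.104), and its KO value was -0.43 ± 0.24 (adjusted p = 0.351).

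Hk2 made up 62.7 to 77.8% of the 3 hexokinase transcripts Hk1, Hk2 and Hk3 in KO cisplatin saline and 43.1 to 56.2% in KO naive (exact permutation p = 0.100, adjusted p = 0.143, n = 3 each). The level of Hk2 itself was not higher there: Hk3 averaged 126 ± 27 CPM in KO naive and 42.3 ± 29 in KO cisplatin saline and Hk1 24.2 ± 2.5 and 13 ± 1.6 (SD, n = 3 each), with log2 fold changes of -1.57 ± 0.53 for Hk3 (adjusted p = 0.118) and -0.90 ± 0.42 for Hk1 (adjusted p = 0.272). In WT the shares overlapped, at 45.7 to 48.5% and 43.03 to 61.6% (exact permutation p = 1.000, n = 3 each). Pfkp made up at most 2.71% of the phosphofructokinase transcripts in any sample, so the other 2 isozymes, Pfkl and Pfkm, carried nearly all of them. Aldoa was 74.9 to 80.8% of aldolase A and C in naive WT samples and 84.0 to 92.5% in WT cisplatin saline (exact permutation p = 0.100, n = 3 each). These shares depend on the exon lengths used.

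**Figure D3:**
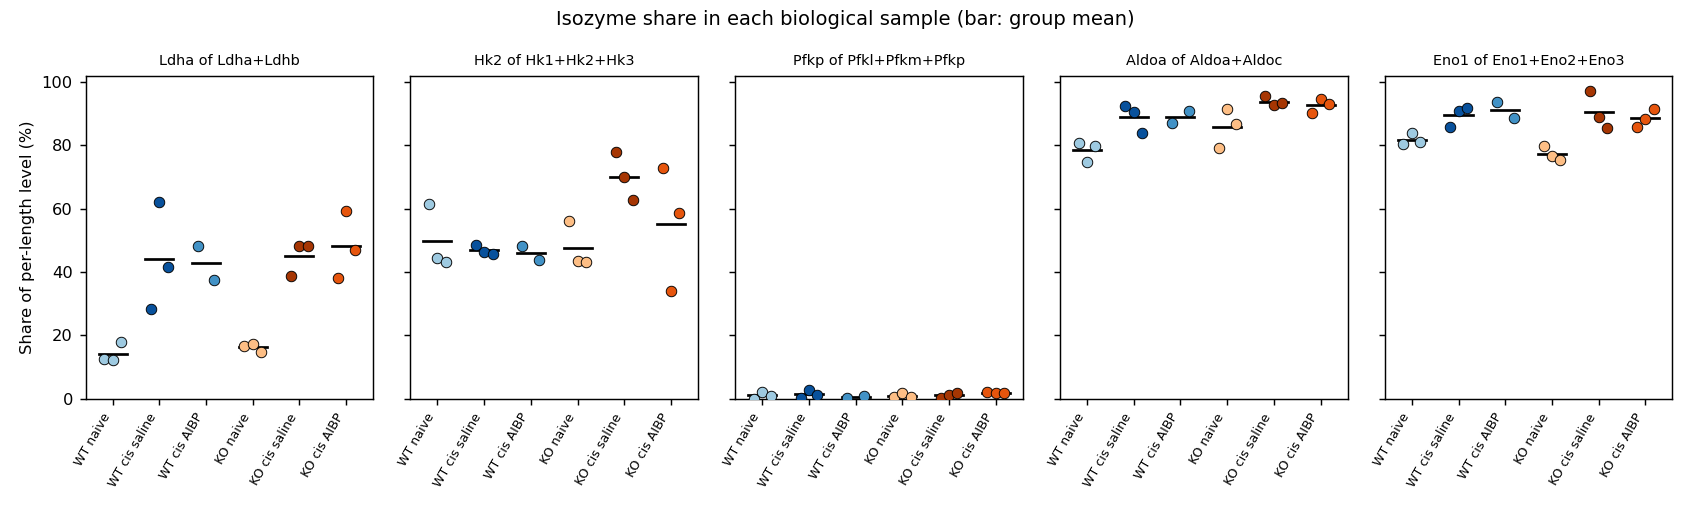
Share (%) of the per-length level that each named isozyme takes among the isozymes in the panel title, in each of the 17 samples; bars are group means. Ldha lies at 12.3 to 17.8% in the naive samples and at 28.2% or more in all others, and Pfkp stays under 3% throughout.

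Other genes of the pathway and of its neighbours were described by lists. Of 14 other glycolytic isozymes tested, 3 had a fold change above 0 in WT (median log2 fold change -0.53) and 7 in KO (median -0.16). None of the 14 passed edgeR in either genotype (2 and 4 at an unadjusted threshold of 0.05; DESeq2 called 1 higher and 1 lower in each, limma-voom 0). Of 11 sugar and monocarboxylate transporters, 2 rose in WT and 1 fell in KO. Slc16a1, the lactate and pyruvate transporter MCT1, rose from 10.3, 11.7 and 17 CPM to 30.5, 42.3 and 31.9 in WT (log2 fold change 1.42 ± 0.32, adjusted p = 0.0301), with 1.00 ± 0.32 in KO (adjusted p = 0.102). Slc2a6, a facilitative transporter of the GLUT family, rose in WT as well (1.55 ± 0.35, adjusted p = 0.028), with 0.98 ± 0.34 in KO (adjusted p = 0.138). In WT, Slc16a1 passed in 2 of 6 leave-one-out fits and Slc2a6 in 1 of 6.

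Slc2a5, the fructose transporter GLUT5 and a microglial marker, fell in KO from 553, 830.5 and 885 CPM to 126, 118 and 206 (log2 fold change -2.33 ± 0.36, adjusted p = 0.00226). Slc2a5 passed there in 6 of 6 leave-one-out fits. Its WT levels were 730.3, 732 and 677 CPM (naive) and 431, 159 and 328 (saline; -1.22 ± 0.34, adjusted p = 0.0764). Slc2a1, the glucose transporter GLUT1, did not pass, at 0.18 ± 0.29 in WT (adjusted p = 0.81) and -0.06 ± 0.29 in KO (adjusted p = 0.959). Slc16a3, the lactate exporter MCT4, also did not pass, at -0.04 ± 0.35 (adjusted p = 0.983) and 0.29 ± 0.35 (adjusted p = 0.723). Hif1a, which encodes the regulated subunit of HIF-1, was at 0.20 ± 0.19 in WT (adjusted p = 0.626) and -0.31 ± 0.19 in KO (adjusted p = 0.411).

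Of 14 HIF-1 targets outside glycolysis, none passed edgeR in WT (3 at an unadjusted threshold of 0.05; DESeq2 1 higher and 1 lower, limma-voom 0). In KO 1 rose and 1 fell: Higd1a, a mitochondrial protein gene induced by hypoxia (1.28 ± 0.26, adjusted p = 0.0128), and P4ha1, a collagen prolyl hydroxylase subunit (-1.38 ± 0.21, adjusted p = 0.00199). They passed in 4 and 6 of 6 leave-one-out fits. The median of that list was -0.30 in WT and -0.0010 in KO. Among 16 regulators of glycolysis, 2 fell in KO: Txnip, an inhibitor of glucose uptake (-1.33 ± 0.28, adjusted p = 0.015), and Mlxipl, the glucose-sensing factor ChREBP (-0.85 ± 0.21, adjusted p = 0.0325). Txnip passed in 3 of 6 leave-one-out fits and Mlxipl in 2 of 6. None of the 16 passed edgeR in WT (6 at an unadjusted threshold of 0.05; DESeq2 2 higher and 1 lower, limma-voom 0).

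Lists of genes that draw on glycolytic intermediates or pyruvate were also described. In serine synthesis, which branches off at 3-phosphoglycerate, 2 of 5 rose in both genotypes. Psat1, the phosphoserine aminotransferase, rose 5.19-fold in WT (2.37 ± 0.36, adjusted p = 0.00363) and 3.68-fold in KO (1.88 ± 0.35, adjusted p = 0.00762), and passed in all 6 leave-one-out fits of each. Shmt2, the mitochondrial serine hydroxymethyltransferase, rose 4.38-fold in WT (adjusted p = 0.016) and 2.94-fold in KO (adjusted p = 0.0495), and passed in 2 and 0 of 6. Of 16 tricarboxylic acid cycle genes, 15 had a fold change above 0 in each genotype. In KO 2 of the 16 rose, Idh3a (1.78 ± 0.43, adjusted p = 0.0305) and Sdhb (0.84 ± 0.18, adjusted p = 0.0154), and passed in 2 and 3 of 6 leave-one-out fits. None passed edgeR in WT (6 at an unadjusted threshold of 0.05; DESeq2 3 higher, limma-voom 1 higher). The pentose phosphate pathway had 1 of 8 higher in KO, Tkt, a transketolase (1.05 ± 0.23, adjusted p = 0.0159), and pyruvate entry to mitochondria 1 of 8, Pdhb, a pyruvate dehydrogenase subunit (0.70 ± 0.15, adjusted p = 0.0144). Tkt passed in 4 of 6 leave-one-out fits and Pdhb in 3 of 6. In WT neither list had a gene past edgeR's threshold (3 and 0 at an unadjusted threshold of 0.05; DESeq2 3 and 0, limma-voom 0 and 0), and none of 3 gluconeogenesis genes passed in either genotype (0 by the unadjusted threshold, DESeq2 or limma-voom).

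**Figure D4:**
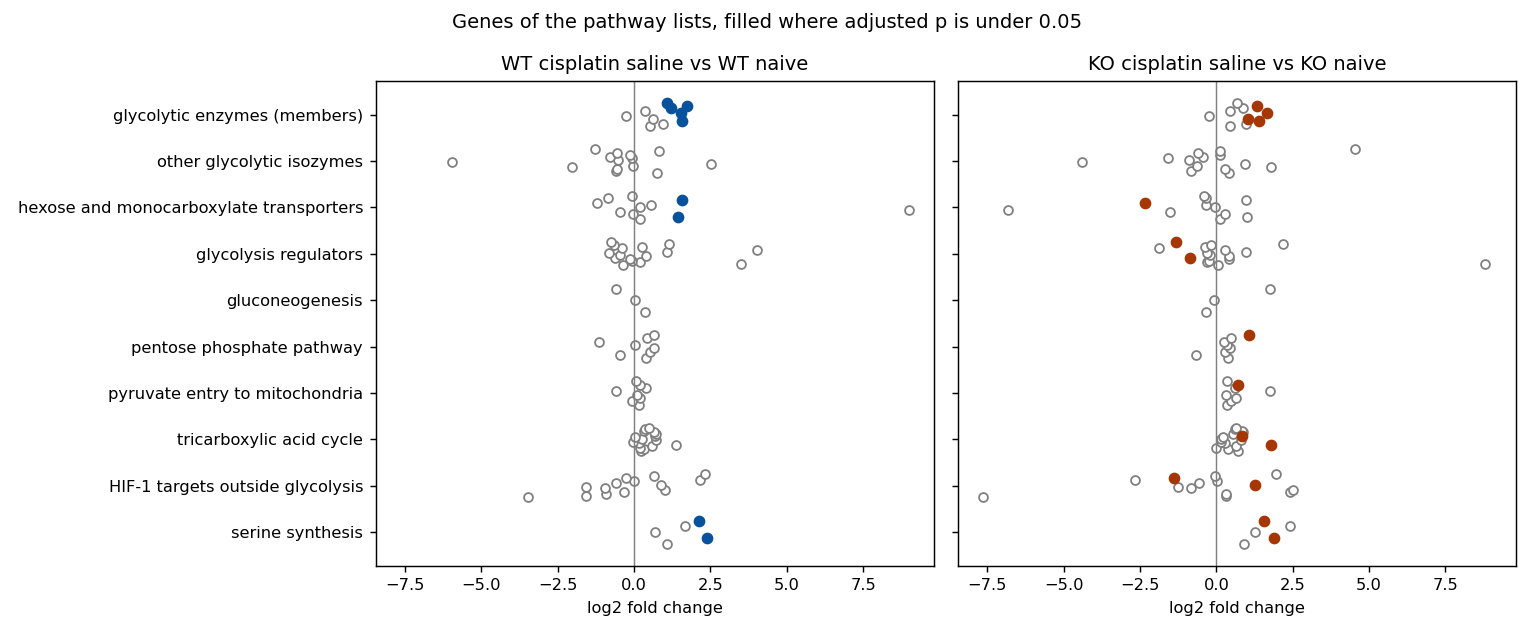
Log2 fold change of every tested gene of each pathway list, cisplatin saline against naive, in WT (left) and KO (right), 1 point per gene on a shared axis; filled points have an adjusted p under 0.05. The glycolytic enzymes and serine synthesis lie mostly above 0 in both panels, while of the other glycolytic isozymes 3 of 14 lie above 0 in WT and 7 of 14 in KO.

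Levels of other cells' markers differed between the same groups. The summed level of 8 monocyte markers was 2.93 to 61.7 CPM in naive WT samples and 238 to 1066 in WT cisplatin saline, 4.09 to 34.1 in KO naive and 775 to 1215 in KO cisplatin saline. All 8 were detected in WT naive, and the median log2 fold change of the 8 was 4.48 in WT and 4.17 in KO, where 1 of them rose. Fn1, fibronectin, made up most of these sums after cisplatin and was singled out after its values were seen. Without it, the other 7 markers summed to 2.24, 6.55 and 10.1 CPM in naive WT samples 1 to 3 and to 1.54, 193 and 139.8 in cisplatin saline 4, 5 and 6, so sample 4 lay below all 3 naive samples. In KO they summed to 2.36, 23.2 and 3.18 CPM (naive) and 137, 127 and 97 (saline). Within WT cisplatin saline, Ccr2, a receptor of monocytes, stood at 0.32, 95.3 and 62.8. Sample 4 was the lowest of the 3 for monocyte markers and for Ldha, Pkm, Gapdh and Pgk1, and was still above all WT naive samples for the 8 enzymes. Of its 3 technical replicates, replicate 1 was the lowest for Ldha, Pkm, Gapdh and Pgk1. Ldha stood at 385, 772 and 639 CPM in these replicates, Pkm at 464, 999 and 669 and Gapdh at 521, 983 and 830. Of 6 border macrophage markers, Lyve1 had no count in any group; the 6 summed to 0.14 to 4.52 CPM in naive WT samples, to 0.59, 134 and 84.2 in cisplatin saline 4, 5 and 6, to 5.96 to 8.94 in KO naive and to 21.6 to 35.6 in KO cisplatin saline. Of 9 neutrophil markers, S100a9, Ly6g and Retnlg had no count in any group, while S100a8 was at 0 CPM in naive WT and at 0.019, 2.43 and 1.86 in cisplatin saline, with KO means of 0.23 and 3.75. Mmp8, also of that list, had at most 0.0178 CPM in naive WT samples and 0, 12.7 and 8.89 in the saline group. The sum of the 9 was lower after cisplatin saline, at 670.1 to 803 CPM in WT naive against 283 to 474, and 702 to 795 in KO naive against 255 to 298. Csf3r, which microglia also express, held nearly all of it (group means of 756 and 378 CPM in WT). The 10 microglial markers summed to 26225 to 33927 CPM in WT cisplatin saline and 19588 to 22768 in KO cisplatin saline, below the naive ranges. The part of these shifts in the enzymes' levels was not tested.

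**Figure D5:**
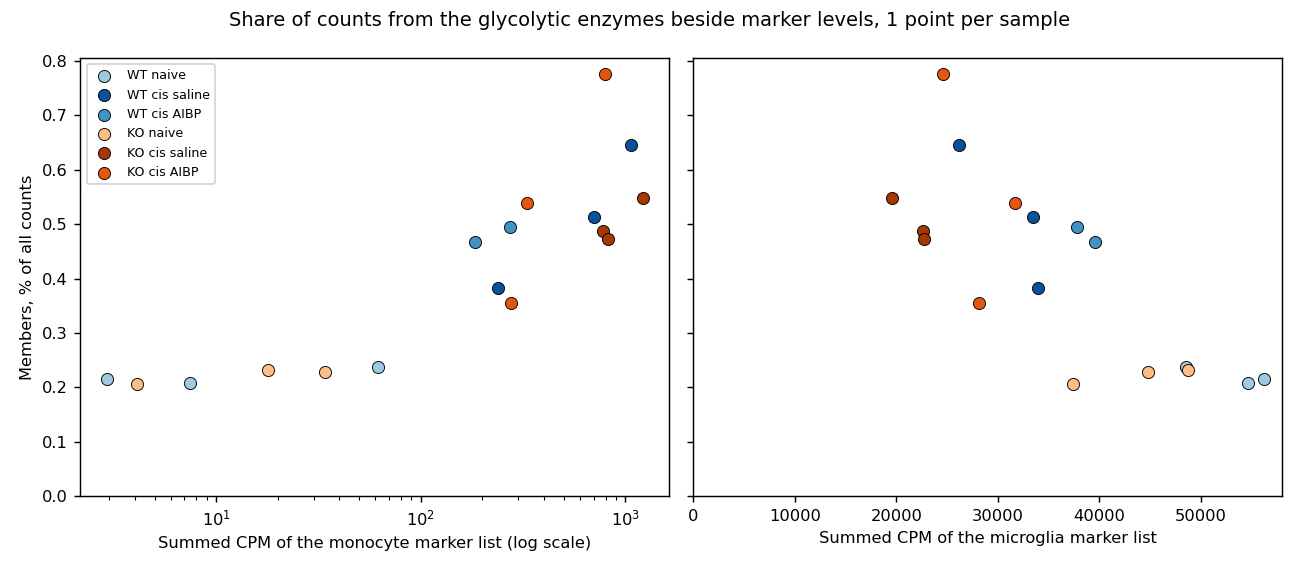
Share of all counts from the 10 enzymes (%) against the summed CPM of the monocyte markers (left, log scale) and of the microglia markers (right), 1 point per sample. Naive samples lie at 0.207 to 0.238% and all cisplatin samples at 0.355% or more, on the side of higher monocyte sums, most of which is Fn1 in the cisplatin samples.

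Technical replicate 1 of WT cisplatin saline 4 was the lowest of its replicates for Ldha, Pkm and Gapdh. With cisplatin saline 5 and 6 both left out, the WT contrast kept only this treated sample, assumed to vary like the other groups. It then called 0 of the 10 enzymes and 7 genes in all; Pkm was at 1.397 ± 0.37 (adjusted p = 0.365), Gapdh at 1.15 ± 0.38 (adjusted p = 0.525) and Ldha at 0.79 ± 0.36 (adjusted p = 0.741). A list of 10 immediate early and stress genes, which respond to tissue dissociation, summed to 17955 to 44567 CPM in naive WT samples and 8256 to 25071 in WT cisplatin saline. The same list summed to 6644 to 33200 CPM in KO naive and 2824 to 11477 in KO cisplatin saline. With its mean log2 level as a covariate, 4 enzymes were called in WT and 0 in KO. Calls over all genes moved between fits as well, in KO from 35 to 2589 over all alternative fits. That range spans unlike fits, and whether enzyme calls moved in step with those of all genes was not tested. These counts of enzymes alone are not read as a result particular to the enzymes.

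Enzyme levels in the AIBP groups were compared with naive microglia and with cisplatin saline. Against naive, 2 of 10 enzymes were higher in WT, Gapdh (1.55 ± 0.32, adjusted p = 0.0284) and Pkm (1.66 ± 0.31, adjusted p = 0.0213; 2 against 3 samples). Over all genes 1.25% were called there (256 genes, 1.06% higher). In the samples labelled KO cisplatin AIBP 5 were higher than in KO naive: Gapdh (1.61 ± 0.29, adjusted p = 0.00991), Ldha (1.60 ± 0.32, adjusted p = 0.0157), Pkm (1.60 ± 0.29, adjusted p = 0.00906), Tpi1 (1.17 ± 0.26, adjusted p = 0.0247) and Pgk1 (1.12 ± 0.26, adjusted p = 0.036). Over all genes 2.68% were called in that comparison (549 genes, 1.81% higher). These comparisons use the naive samples of the cisplatin saline comparisons. The 8 monocyte markers summed to 184 to 272 CPM in WT cisplatin AIBP and 276 to 797 in the samples labelled KO cisplatin AIBP (without Fn1, 14.3 and 16.9 in WT and 20.6 to 145 in KO), and their part in these values was not tested. Leaving out any 1 WT naive or WT cisplatin AIBP sample left 0 or 1 enzymes called. In KO, leaving out naive 1 left 0, naive 2 left 2, naive 3 left 3, and AIBP 7, 8 or 9 left 8, 1 and 3.

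Against cisplatin saline, no enzyme passed after AIBP in either genotype by edgeR, by DESeq2, by limma-voom or at an unadjusted threshold of 0.05. The smallest p belonged to Gpi1 in WT (-0.22 ± 0.26, adjusted p = 1) and to Tpi1 in KO (0.51 ± 0.25, adjusted p = 0.706). Leaving Pfkp aside, the 95% intervals of the enzymes' log2 fold changes ran from -0.87 to 0.67 in WT and from -0.71 to 1.06 in KO. These are the outermost ends over the enzymes, and single intervals were narrower, such as -0.52 to 0.51 for Aldoa in WT. Changes inside an enzyme's own interval were not excluded, and the intervals are not adjusted for the number of genes. Over all genes 0% were called in WT (0 by edgeR, 759 at an unadjusted threshold of 0.05, 119 by DESeq2, 4 by limma-voom) and 0.00977% in KO (2 genes). The interaction of genotype and AIBP passed for none of the 10 (smallest p for Tpi1, 0.65 ± 0.38, adjusted p = 0.869) and for 0% of all genes (1285 at an unadjusted threshold of 0.05, 152 by DESeq2, 0 by limma-voom). Its intervals without Pfkp ran from -0.92 to 1.47, and it rests on the samples labelled KO cisplatin AIBP.

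KO microglia were compared with WT microglia at each treatment. The comparison holds the Cre allele of the KO mice along with the floxed genes. After AIBP it rests on the samples labelled KO cisplatin AIBP. No enzyme differed between genotypes by edgeR, DESeq2, limma-voom or an unadjusted threshold of 0.05, whether naive (smallest p for Aldoa, -0.22 ± 0.22, adjusted p = 0.955), after cisplatin saline (Aldoa, -0.30 ± 0.22, adjusted p = 0.697) or after AIBP (Tpi1, 0.42 ± 0.29, adjusted p = 0.761). Over all genes 0.00489% were called in naive (1 gene), 0.0440% after cisplatin saline (9 genes) and 0% after AIBP (1299 at an unadjusted threshold of 0.05, 241 by DESeq2, 12 by limma-voom). Leaving Pfkp aside, the 95% intervals ran from -0.69 to 0.76 in naive, -0.83 to 0.79 after cisplatin saline and -0.57 to 1.03 after AIBP. The interaction of genotype and cisplatin passed for none of the 10 and for 0% of all genes (1561 at an unadjusted threshold of 0.05, 212 by DESeq2, 1 by limma-voom). Its intervals, again without Pfkp, ran from -1.24 to 1.10 on the log2 scale.

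Several of these genes have near-identical copies elsewhere in the genome. Of all 50-base stretches in annotated transcripts, Pgk1 shared 53.9% with other genes (Pgk1-rs7 and Gm5537 foremost), Eno1 26% (Eno1b, with 26815 counts beside 667987 for Eno1), Pkm 25.8% and Gapdh 25.1%. Hk2 shared none. How reads matching several places were counted is not given in the sources used here, so the levels of Pgk1, Eno1, Pkm and Gapdh are less certain than that of Hk2.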

How the data were processed

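RNA of sorted lumbar spinal microglia was measured in 102 runs, which are 17 biological samples with 3 technical replicates on 2 lanes each. The authors deposited raw counts per run and a second, normalized table. The normalized table holds signal values: per run, raw counts divided by 1 size factor (0.437 to 1.62), and here the deposited signal served only for its symbols. Per the submitters' processing notes, the build was GRCm38 and the tools were STAR 2.6.0a, DESeq2, bcl2fastq, MultiQC 1.7 and FastQC 0.11.17. The counting tool and its strand setting are not given in the sources used here. Per the labels' protocols, cDNA was made with oligo(dT) primers and PCR, and the labels give no molecular identifiers.

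Counts of the 6 runs of a sample were summed. The main fit was made in R 4.3.3 with edgeR 4.0.16: TMM, filterByExpr by group, a group means model over 17 samples (11 residual degrees of freedom), the quasi-likelihood F test, two-sided, with Benjamini-Hochberg adjustment over 20461 genes and 11 contrasts fitted. DESeq2 1.42.0 and limma-voom (limma 3.58.1) were alternatives, as were other scalings, filters, covariates and subsets of samples. The model was tested on simulated counts. Positions are from GENCODE M21 (GRCm38). Enzymes and lists were chosen with earlier results of these data known.

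Every enzyme is named with all samples. The lists' genes named are those past the threshold in a cisplatin saline comparison, at most 4 a contrast, and Slc2a1, Slc2a5, Slc16a1, Slc16a3, Hif1a and Pgam1; Ldhb, Hk1 and Hk3 were added after their values were seen. Sample numbers shared between genotypes do not pair samples: correlations of deviations ran from -0.14 to 0.14 over 8 pairs.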

Additional observations from a re-analysis of the deposited data

How the results depend on the processing

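The number of enzymes called is given here under other choices, beside 5 (WT) and 4 (KO) for cisplatin saline against naive, and 2 (WT) and 5 (KO) for AIBP against naive. In the other 7 contrasts it was 0 under every alternative that was run. Library totals without scaling gave 8 for KO AIBP, as did a filter of at least 10 CPM in 3 samples and DESeq2; that filter and DESeq2 gave 5 for WT AIBP, and limma-voom gave 1. Fitting only the groups compared gave 2 for WT saline, 5 for WT AIBP and 0 for KO AIBP. The immediate early score as a covariate gave 0 for KO saline and 0 for WT AIBP. Without WT cisplatin saline 5 and 6, WT saline had 0. Without the 3 samples labelled KO cisplatin AIBP, an alternative chosen after seeing the data, KO saline had 7 and WT AIBP 5. The cause of these shifts was not tested. Leaving out 1 biological or technical replicate gave 1 to 5 for WT saline, 1 to 5 for KO saline, 0 to 4 for WT AIBP and 0 to 8 for KO AIBP.

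When each technical replicate was 1 library and its number a replicate block, which overstates the number of independent samples, 8, 8, 7 and 8 enzymes were called. With the sample number as a replicate block, fitted for the genotype contrasts and interactions, 0 were called in each; the numbers do not pair samples.

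Genes with fold changes near 0 or few counts changed sign. Slc16a3 in WT was 0.0379 with upper quartile scaling, 0.0840 with library totals, 0.0339 with the filter of 10 CPM, 0.0075 with only the groups compared, 0.0637 with the technical block, 0.0033 with the covariate and 0.0026 without the samples labelled KO cisplatin AIBP. Slc2a1 in KO was 0.0478 with library totals. Pfkp in KO was -0.85 in limma-voom and -0.31 with the technical block. Without WT cisplatin saline 5 and 6, WT values were 0.11 for Hk2, -3.29 for Pfkp and -0.49 for Slc2a1. Leaving out 1 replicate gave, in WT, -1.48 to 1.80 for Pfkp, -0.15 to 0.45 for Slc2a1 and -0.38 to 0.29 for Slc16a3. In KO it gave -0.44 to 0.0004 for Hk2, -4.29 to 1.89 for Pfkp, -0.16 to 0.0273 for Slc2a1, -0.0832 to 0.60 for Slc16a3 and -0.13 to 0.43 for Pgam1.

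Of the fold changes of named genes under these alternatives, 1129 kept their direction and their side of the threshold, 171 no longer passed and 67 passed newly. Over all genes, calls ranged from 7 to 2313 in WT saline against naive and from 35 to 2589 in KO over the alternatives; DESeq2 called 2081 and 2424 there and 1540 and 1951 for AIBP against naive (main 595, 903, 256 and 549). With library totals, 594 genes were higher and 148 lower in WT saline (main 400 and 195), 808 and 333 in KO saline (496 and 407), and 615 and 164 in KO AIBP (371 and 178). No scaling moved the median of all genes by more than 0.0705 in these contrasts. Pfkp was uneven between technical replicates of a sample, at 0.036, 0.34 and 35.7 CPM in KO 8, and 7 of 51 libraries had no count. The cause of this unevenness was not tested.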
